A study of Mus musculus with 2 samples.

Results

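The 6 Iroquois homeobox genes of the mouse, Irx1 to Irx6, were looked up in a pair of gene lists that name the nearest genes to differentially methylated regions in sorted pancreatic cells lacking Neurog3 (called Ngn3 in the labels). All 6 were found in the RefSeq annotation by symbol, among 49997 annotated genes, and their names were searched for in the lists without regard to case. One library came from Ngn3 null cells (Ngn3eGFP/eGFP, labelled endocrine progenitors), in which the eGFP reporter sits on both alleles of the gene, and the other from Ngn3 heterozygous cells (Ngn3eGFP/+, labelled islet progenitors), which carry the reporter on 1 allele. Both came from E14.5 pancreas of a mixed background, over 95% ICR with under 2.5% each of C57Bl/6 and 129svev, and both were sorted for eGFP, so the reporter allele is shared by both genotypes. With 1 library per genotype there is no replicate check and no test between genotypes. Genotype and the kind of cell that was sorted cannot be told apart, and the labelled cell type could not be checked, since the table holds no expression values.

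Iroquois genes encode homeodomain transcription factors of the TALE class, which have a loop of extra amino acids inside the homeodomain, together with a short Iro box of their own. They pattern the neural tube, heart, limb and kidney. In mammals they lie in a pair of clusters that arose by duplication, so that Irx1, Irx2 and Irx4 of one cluster have Irx3, Irx5 and Irx6 as their counterparts in the other. In the mouse pancreas Irx1 and Irx2 are known from the glucagon-producing alpha cell lineage. Methylation of cytosine in CpG pairs is what bisulfite sequencing reads, together with hydroxymethylation.

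Of the 6 Irx genes, 3 were named nearest to regions with higher methylation in null than in heterozygous cells: Irx1, Irx3 and Irx6. None was named in the list for lower methylation in null cells, and Irx2, Irx4 and Irx5 were in neither list. The background share was 12.1% for the higher list (2645 of 21887 protein-coding genes) and 1.51% for the lower list (331 genes), so a count of 0 of 6 in the lower list is near the background. The count of 3 of 6 in the higher list is above its background share, but it rests on 6 genes in 2 neighbourhoods, which are not independent. Each gene name stands in a list once, without a methylation level, a position or a number of regions, so the size of the difference and its place near each gene are unknown. A gene in neither list had no region assigned to it, which does not show equal methylation there.

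The promoters on hand are shown because CpG pairs are the bases at which methylation is read and because a named noncoding gene, described further on, starts close to Irx2. RefSeq promoter windows in build GRCm38.p6 were found for 3 of the 6 genes, Irx2, Irx3 and Irx4, and the 250 bases before the start site are printed 5′ to 3′ on the strand of the gene, with each CpG in capitals. The Irx3 bases lie at chr8:91801655-91801904 on the minus strand, the Irx2 bases at chr13:72628570-72628819 on the plus strand and the Irx4 bases at chr13:73260247-73260496 on the plus strand.
Irx3: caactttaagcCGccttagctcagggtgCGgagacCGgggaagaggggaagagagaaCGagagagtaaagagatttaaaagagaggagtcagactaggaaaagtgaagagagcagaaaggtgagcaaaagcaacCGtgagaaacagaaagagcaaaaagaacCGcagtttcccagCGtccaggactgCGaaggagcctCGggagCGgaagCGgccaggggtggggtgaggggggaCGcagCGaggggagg
Irx2: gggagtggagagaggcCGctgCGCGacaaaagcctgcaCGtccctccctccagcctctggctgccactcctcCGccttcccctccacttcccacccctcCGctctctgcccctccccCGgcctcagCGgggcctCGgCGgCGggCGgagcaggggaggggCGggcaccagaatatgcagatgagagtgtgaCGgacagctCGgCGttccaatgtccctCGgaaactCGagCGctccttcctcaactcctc
Irx4: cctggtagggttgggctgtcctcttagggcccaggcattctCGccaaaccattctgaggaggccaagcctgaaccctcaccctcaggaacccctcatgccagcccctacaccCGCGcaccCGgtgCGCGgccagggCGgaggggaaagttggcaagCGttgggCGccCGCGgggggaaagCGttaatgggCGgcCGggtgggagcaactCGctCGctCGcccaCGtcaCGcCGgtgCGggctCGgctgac

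Irx3, which was named in the higher list, had the fewest CpG pairs of these promoters. Its whole window of 300 bases, which adds 50 bases after the start site, held 14, more than 51.1% of the 21263 windows on hand for 17492 protein-coding genes, some of which have several windows. The Irx2 window held 25, more than 75.2% of windows, and the Irx4 window held 31, more than 86.0%. GC content was 56.0% for Irx3, 69.0% for Irx2 and 70.7% for Irx4, against a median of 56.3% for all windows. The median window held 17 CpG pairs over 2817 windows of 2070 genes in the higher list, 12.5 over 350 windows of 256 genes in the lower list and 12 over 18228 windows of 15251 genes in neither. The Irx3 value therefore lay below the higher list's median, and the Irx2 and Irx4 values above the median of genes in neither list. Whether a called region overlaps any of these promoters is not given by the table.

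**Figure D1:**
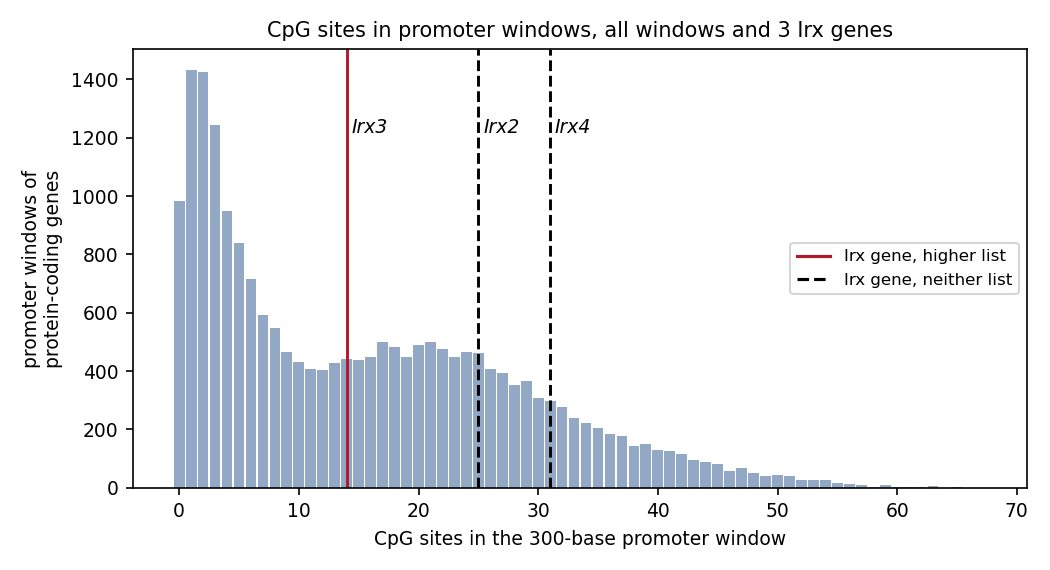
Number of RefSeq promoter windows of protein-coding genes (y axis) by CpG pairs in the window of 300 bases (x axis), with vertical lines for Irx3 (solid, higher list), Irx2 and Irx4 (dashed, neither list). Irx3 has 14 CpG pairs, near the middle of all windows, and Irx2 and Irx4 have 25 and 31, above 75.2% and 86.0% of all windows.

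The promoters were also searched on both strands for the E-box CANNTG, the kind of site that basic helix-loop-helix factors such as Neurog3 bind. The Irx2 stretch held 1, with the letters CAGATG, whose first base is 74 bases before the start site. The Irx3 and Irx4 stretches held none. Among all promoter windows of protein-coding genes 62.8% held at least 1 CANNTG in the same 250 bases, and 12.4% held CAGATG or its reverse complement CATCTG, which are both among the CANNTG matches. A match is a description of these letters and not evidence of binding.

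The Irx1/2/4 cluster had 1 of 3 members in the higher list. It spans 1311 kb of chromosome 13 (71958232 to 73269622) and holds no protein-coding gene besides its members. Irx1 (71958232 to 71963723, 5.49 kb), a regulator in lung, kidney and other developing organs, was the named member. Irx2 (72624430 to 72634196, 9.77 kb), the other member known from alpha cells, was in neither list, nor was Irx4 (73259589 to 73269622, 10.03 kb), which maintains ventricular identity in the heart. Gaps of 661 kb between Irx1 and Irx2 and of 625 kb between Irx2 and Irx4 separate the members.

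The Irx3/5/6 cluster had 2 of 3 members in the higher list. It spans 882 kb of chromosome 8 (91798511 to 92680956), again with no other protein-coding gene inside. Irx3 (91798511 to 91801654, 3.14 kb), a factor of the neural tube, heart conduction system and hypothalamus, was named. So was Irx6 (92674289 to 92680956, 6.67 kb), which acts in bipolar neurons of the retina. Irx5 (92357796 to 92361456, 3.66 kb), which shapes the repolarization gradient of the heart and also acts in retinal bipolar cells, lies between them and was in neither list. Its distance is 556 kb from Irx3 and 313 kb from Irx6, and no gene of any class is annotated between Irx5 and Irx6. Between the clusters the difference is 1 gene, which no test here can assess.

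By paralogous pair, both Irx1 and Irx3 were in the higher list and neither Irx2 nor Irx5 was. In the remaining pair Irx6 was named and Irx4 was not. By position, the gene at the low-coordinate end of each cluster was named and the middle gene of each was not. These arrangements were noticed after the lists had been read and are given as a description of 6 genes.

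**Figure D2:**
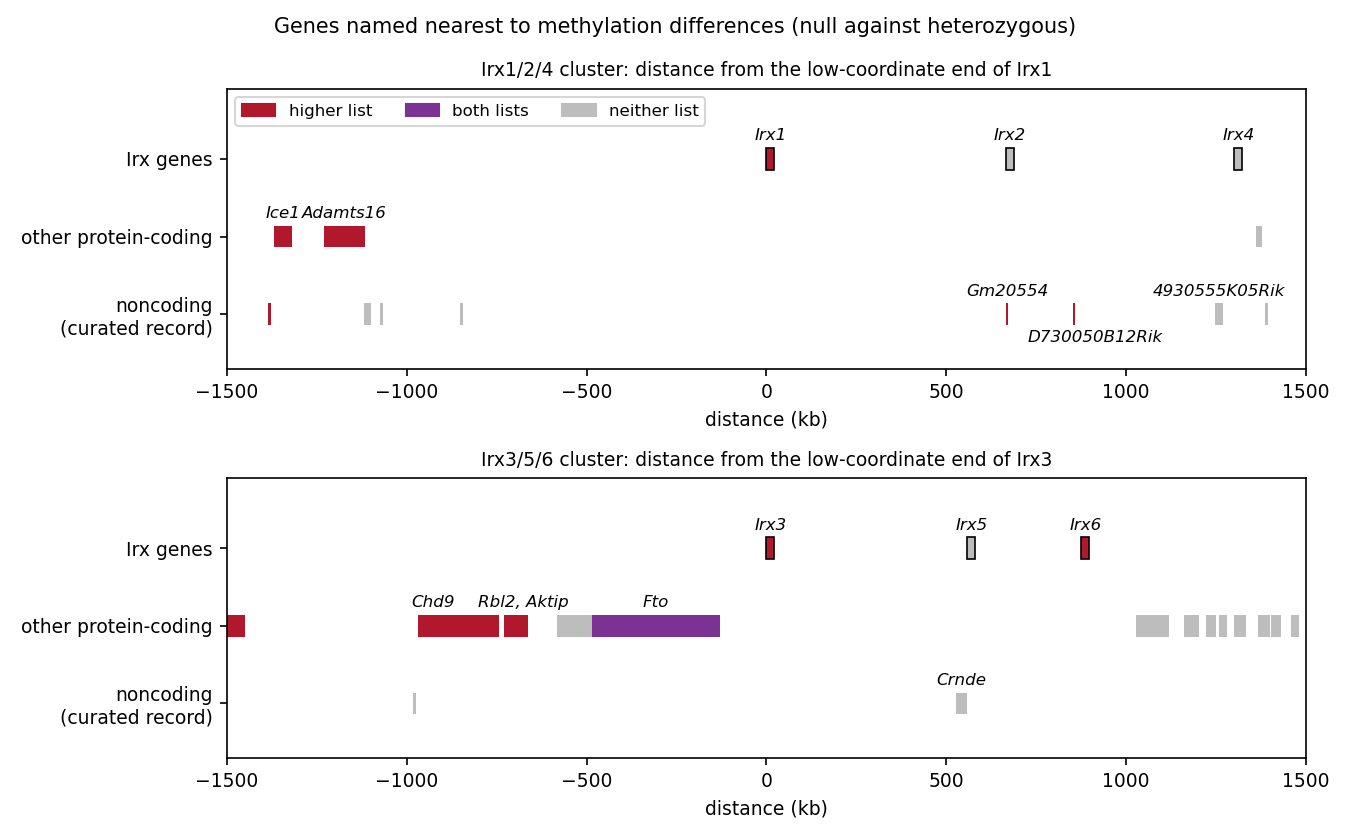
Genes around the Irx1/2/4 cluster (upper panel) and the Irx3/5/6 cluster (lower panel) by distance in kb from the low-coordinate end of Irx1 or Irx3 (x axis), in rows for Irx genes, other protein-coding genes and noncoding genes with a curated RefSeq transcript. Colour gives the list of each gene, genes are to scale except that the shortest are widened to be visible, and the named Irx genes are Irx1, Irx3 and Irx6, with the 2 named noncoding genes near Irx2.

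Although Irx2 itself was not named, the noncoding gene that starts beside it was. Gm20554, a long noncoding RNA gene of 5.10 kb (chromosome 13, 72623466 to 72628564), was in the higher list and not in the lower list. It is annotated on the strand opposite to Irx2, and 255 bases lie between its start and the Irx2 start site at 72628820, so the Irx2 bases printed above fill nearly all of the interval between the starts. The Irx2 gene record also contains predicted transcripts that begin further away and share 4135 bases with Gm20554. A region near this pair of starts could be assigned to either gene, and the lists do not say how such ties were settled. D730050B12Rik, a long noncoding RNA gene of 7.16 kb (72809601 to 72816763), was in the higher list too, 175 kb beyond Irx2 and 443 kb before Irx4.

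In the Irx3/5/6 cluster no noncoding gene was named. Crnde, a long noncoding RNA gene, starts 1675 bases from the nearer end of Irx5, and neither gene was in a list. Irx3os, the only other gene whose symbol begins with Irx, lies next to Irx3 (chromosome 8, 91803336 to 91873722) and was also in neither list. Of the 20 noncoding genes annotated inside the clusters, 4 have a curated transcript (3 on chromosome 13 and 1 on chromosome 8), and both named ones are among these 4. The other 16 have no curated transcript, and noncoding genes of that kind were hardly named anywhere: 1 of 22868 was in the higher list, against 499 of 5188 (9.62%) with a curated transcript. Counting genes of every class, the Irx1/2/4 cluster thus held 3 names in the higher list and the Irx3/5/6 cluster 2.

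The Irx genes are short genes, with long spans around them that hold no other protein-coding gene. The span nearest to a gene was taken to run, on each side, as far as the point midway to the next protein-coding gene. Noncoding genes, some of which the lists name, do not bound it. It was 894.0 kb for Irx1, 652.8 kb for Irx2 and 347.9 kb for Irx4. It was 346.3 kb for Irx3, 438.1 kb for Irx5 and 236.3 kb for Irx6. The median of the 6 was 393 kb, against 45.6 kb for all protein-coding genes. In this span, 5 members fell in the top decile and Irx6 in the ninth, whereas in gene length the 6 fell in deciles 2 to 4. Span deciles were computed by this measure alone. By this measure named and unnamed members overlapped: the named ones had 236.3, 346.3 and 894.0 kb and the unnamed ones 347.9, 438.1 and 652.8 kb. Bounded by genes of any class with a curated transcript, a choice made after seeing the data, they did not overlap. The named Irx6, Irx3 and Irx1 then had 236.3, 330.4 and 760.9 kb, and the unnamed Irx4, Irx2 and Irx5 had 50.4, 97.5 and 160.9 kb. With that bound, the share of all genes named was not computed by span, so these values have no background beside them. The Irx2 span was cut by Gm20554, which overlaps Irx2, and by D730050B12Rik, both themselves in the higher list. Bounded by every annotated gene, named and unnamed members overlapped again, with 4.37 kb for the named Irx3. Ranked by that span among annotated genes of every class, Irx3 stood at percentile 17.4, Irx2 at 54.1 and Irx4 at 69.4. Irx5, Irx6 and Irx1 stood at 92.3, 93.5 and 97.0. The high span rank of some members thus depends on the choice of bound.

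Gene length, and the span bounded by protein-coding genes, move with the share of genes named. In the higher list were 30.1% of protein-coding genes of the top span decile and 24.4% of the ninth, against 3.52% of the lowest. By gene length the shares were 5.89% in decile 2, 5.85% in decile 3, 7.68% in decile 4 and 38.5% in the longest decile. Among the 4378 genes in the span deciles of the Irx genes 27.3% were in the higher list, and among the 6566 genes in their length deciles 6.47% were. Among the 549 genes in both kinds of decile the share was 12.6%, close to that of all genes. The part of span and length in the naming of Irx1, Irx3 and Irx6 was not tested.

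**Figure D3:**
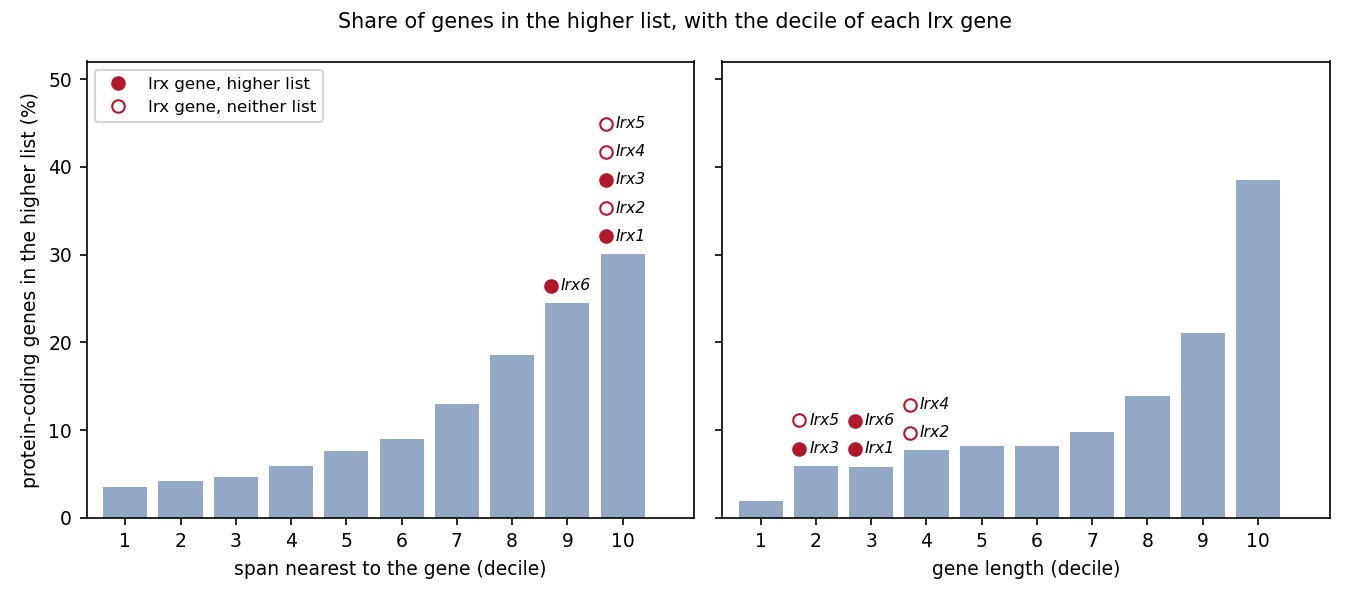
Share of protein-coding genes in the higher list (y axis, percent) by decile of the span nearest to the gene (left) and of gene length (right). Spans are bounded by protein-coding genes alone. Circles place each Irx gene at its decile, filled where it was in the higher list. The Irx genes sit in span deciles 9 and 10, where 24.4% and 30.1% of genes were named, and in length deciles 2 to 4, where 5.85% to 7.68% were; the height of a circle carries no value.

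The genes on either side of each Irx cluster were unevenly named. Of the 10 nearest protein-coding genes on the low-coordinate side of Irx1, 5 were in the higher list: Adamts16, a secreted metalloprotease gene that is the first neighbour at 1116 kb, Ice1, Srd5a1, Tent4a and Adcy2. Adcy2, an adenylate cyclase gene, was in the lower list as well, as was Ube2ql1. Of the 10 beyond Irx4, none was in either list. On the low-coordinate side of Irx3, 6 of 10 were in the higher list: Fto, Aktip, Rbl2, Chd9, Tox3 and Sall1. Aktip and Rbl2 overlap by 12064 bases, so a region there cannot be told apart between them. Of the 10 beyond Irx6, again none was in either list. The only lower-list names among these sets were Adcy2, Ube2ql1 and Fto. As background, the higher list named 12.1% of all protein-coding genes and the lower list 1.51%. These sets of 10 reach 2.96 Mb before Irx1 and 3.16 Mb before Irx3, but 0.549 Mb beyond Irx4 and 0.575 Mb beyond Irx6. Within 1000 kb on each side, the Irx1/2/4 cluster has no protein-coding neighbour before Irx1 and 18 beyond Irx4, none of them in a list. The same distance takes in 5 genes before Irx3, of which 4 were in the higher list, and 13 beyond Irx6, of which none was in either list.

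Spans differed between these sides too. The median span was 213 kb for the 10 genes before Irx1 and 50.2 kb for the 10 beyond Irx4. It was 167 kb for the 10 before Irx3 and 49.5 kb for the 10 beyond Irx6. Of all protein-coding genes in the span decile of the longer medians (142 to 283 kb), 24.4% were in the higher list. In the decile of the shorter medians (45.6 to 62.3 kb) 8.95% were. The lower list had 3.38% and 1.37% of genes in these deciles. By gene length, Adcy2 (380 kb), Fto (355 kb), Chd9 (226 kb) and Adamts16 (114 kb) lie in the longest decile. There the higher list had 38.5% of genes and the lower list 4.89%. The other named neighbours are shorter, and no gene in the sets beyond Irx4 and Irx6 lies in that decile. Whether span or gene length accounts for the uneven naming was not tested. Fto, which encodes an RNA demethylase and whose introns are known to hold long-range enhancers of Irx3, was in both lists. It covers 355 kb and ends 130.1 kb from Irx3, which puts the midpoint between them 65.0 kb from either gene.

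Some other TALE homeobox genes were also in the higher list. Of 11 such genes counted outside the Iroquois family 4 were named there and none in the lower list, beside 12.1% and 1.51% of all protein-coding genes. In the span deciles 9 and 10, which hold 5 of the 11, the higher list had 24.4% and 30.1% of genes. They were Meis1 and Pbx3, partners of Hox proteins, with spans of 1055 and 359.7 kb; Tgif1, a repressor in TGF-beta signalling, with 80.9 kb; and Mkx, a tendon factor with Irxl1 (Iroquois-like) as an older symbol, with 183 kb. Meis2 and Pknox2, with spans of 653 and 293 kb in the same top decile as most Irx genes, were in neither list, nor were Meis3, Pbx2, Pbx4, Pknox1 and Tgif2. By gene length Meis1 (139 kb) and Pbx3 (201 kb), like the unnamed Meis2 and Pknox2, lie in the longest decile, where 38.5% were named. Mkx (69.8 kb) lies in decile 9, with 21.0% named, and Tgif1 (9.33 kb) in decile 4, with 7.68%. The part of gene length in this count was not tested.

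Homeobox genes of other small families, many of them also in pairs or clusters, were named about as often as genes in general. Of 31 such genes 4 (12.9%) were in the higher list, namely Dlx2, Lbx1, Barx1 and Emx1, and 1, Msx2, was in the lower list. Their median span of 71.0 kb was below that of the Irx genes and the lowest Irx span of 236.3 kb was exceeded by 3 of them, Emx2, Msx2 and Barx2. The last list held 16 regulators and products of the alpha cell lineage, the cells in which Irx1 and Irx2 are known. Of these, 1 (6.25%) was in the higher list and none in the lower list. Both counts are near the shares of 12.1% and 1.51% over all protein-coding genes. The named gene was Insm1, a zinc finger factor of endocrine differentiation. Pou3f4, an alpha cell factor on the X chromosome, and Gcg, the glucagon gene, were in neither list. No difference between the Irx genes and these groups was tested.

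**Figure D4:**
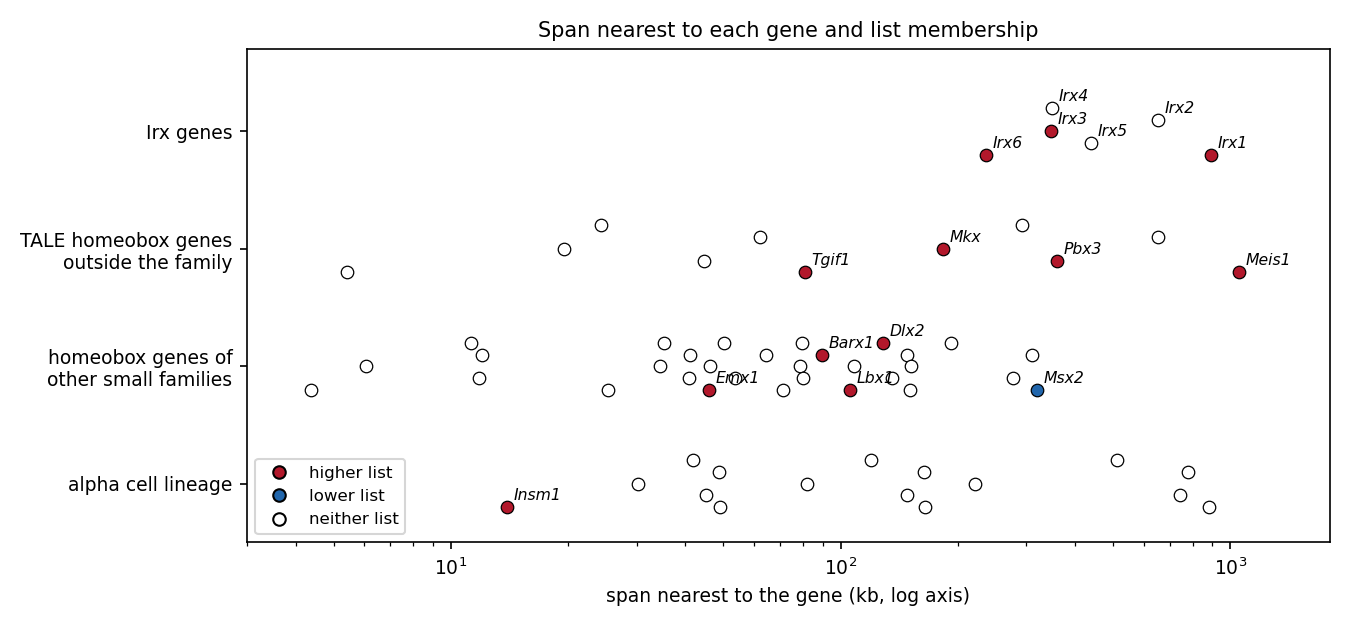
Span nearest to each gene in kb (x axis, log scale) for the 6 Irx genes and 3 other groups of genes (rows), with each circle 1 gene, red in the higher list, blue in the lower list and white in neither; vertical offsets within a row only separate the circles. Spans are bounded by protein-coding genes alone. The Irx genes lie between 236.3 and 894.0 kb, and the named Irx1, Irx3 and Irx6 are spread across that range. Bounded by genes with a curated transcript (not drawn, chosen after seeing the data), the named members have 236.3 to 760.9 kb and the unnamed ones 50.4 to 160.9 kb. Bounded by every annotated gene (not drawn), they overlap again, with 4.37 kb for the named Irx3 and 160.9 kb for the unnamed Irx5. The share of all genes named was not computed by span with either of these bounds.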

How the data were processed

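Whole-genome bisulfite sequencing was done on 1 Ngn3 null and 1 Ngn3 heterozygous library. Per the labels' protocols, cells were sorted for eGFP (over 95% viable), 75 ng of DNA was tagmented with Tn5, bisulfite-converted and amplified by 12 cycles, and about 400000000 reads of 150 bp (paired) were obtained per library. Per the submitters' processing notes, Trim Galore and the builds mm10 and GRCm38 were used. Not given in the sources used here are the aligner, the region caller, thresholds, coverage and how nearest genes were chosen.

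The deposited table holds gene names from the authors without a measured quantity, so no column has a unit. Per the file headers, column 1 is the lower and column 2 the higher list; the 7 columns after it have no header and carry on its alphabetical order. Of 3230 names in the higher list 3145 matched RefSeq genes of GRCm38.p6, and of 429 in the lower list 406 did, by symbol, gene ID or unique older symbol. Coordinates are 1-based and are those of genes. Spans and deciles use 21887 protein-coding genes on chromosomes 1 to 19, X and Y. Sequences are from RefSeq (GRCm38.p6). Python 3.11.15 with pandas 2.3.3 was used, and matching and spans were checked on a small made-up annotation with known answers.

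The Irx genes, the compared lists and the rule for named genes (all Irx genes, the 10 nearest protein-coding genes on each side of a cluster, and named members of 3 lists) were chosen with earlier results of these data known. Unnamed list members and the noncoding genes inside the clusters were named after their values were seen. Some list members are not reported here and were left out of the counts of their lists.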

Additional observations from a re-analysis of the deposited data

How the results depend on the processing

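The count of 3 Irx genes in the higher list was the same with current symbols alone. It was 0 with exact case, since the table writes these names in capitals, and 0 with column 2 alone, since the 3 names stand in column 5. The lower list count was 0 with either name form. The background share of 12.1% in the higher list became 6.3% over all gene classes, 12.7% on autosomes, 27.3% in the span deciles and 6.47% in the length deciles of the Irx genes, and 12.6% in both together, a choice made after seeing the data. The lower list's 1.51% became 0.813% over all gene classes and was 1.53% on autosomes; also added after seeing the data, it was 3.61% in the span deciles, 0.579% in the length deciles and 2.0% in both together. With annotated genes of every class as neighbours, the spans shrank to 284.9 kb for Irx1, 27.4 kb for Irx2, 4.37 kb for Irx3, 47.0 kb for Irx4, 160.9 kb for Irx5 and 180.5 kb for Irx6. With genes that have a curated transcript, added after seeing the data, they were 760.9 kb for Irx1, 97.5 kb for Irx2, 330.4 kb for Irx3, 50.4 kb for Irx4 and 160.9 kb for Irx5, with Irx6 unchanged. Which gene set the authors used is not given, so the distance of a region from its Irx gene has no firm bound. Noncoding genes with a curated transcript were named too (499 of 5188 in the higher list), and others hardly at all (1 of 22868). Spans bounded by protein-coding genes alone can therefore be longer than the stretch from which regions were assigned. Counted in the 250 bases before the start site alone, CpG pairs numbered 19 for Irx2, 13 for Irx3 and 22 for Irx4. Protein identity between members was not run, for want of protein sequences. No paired analysis was possible because a single library stands for each genotype.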
